A study of Homo sapiens with 6 samples.

Results

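The inhibitors of DNA binding, ID1, ID2, ID3 and ID4, were read in SUM-LM1 breast cancer cells after 6 h with activin B protein at 50 ng/ml or with vehicle. All 4 genes of the 19775 measured were followed through every probe set that the array annotation gives to one of them and to no other gene, 9 of the 54613 probe sets tested. ID1 and ID3 had 1 probe set each, ID2 had 2 and ID4 had 5. A further probe set is annotated to ID2 together with its pseudogene ID2B. It is given separately, since its signal cannot be assigned to either.

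SUM-LM1 is a derivative of the human breast cancer line SUM159 that was selected for metastasis to the lung. The 3 activin B cultures and the 3 vehicle cultures, which got 0.1% albumin in buffered saline, were seeded at 12500 cells per ml on ultra-low attachment plates, where cells grow as floating spheres. Activin B is a ligand of the TGF-beta family, built from a pair of inhibin beta B chains. Each culture was labelled a biological replicate of its group and was measured on 1 human expression array, so the results describe 1 cell line at 1 dose and 1 time.

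ID proteins carry a helix-loop-helix domain through which they pair with other proteins, but lack the basic stretch that contacts DNA. They bind the E proteins, the common partners of tissue-specific basic helix-loop-helix (bHLH) factors, and hold them off the E-box, the short DNA element that bHLH dimers recognise. ID1, ID2 and ID3 are well known as early target genes of bone morphogenetic proteins (BMPs), which signal through SMAD1 and SMAD5, whereas activins are known mainly for signalling through SMAD2 and SMAD3. In breast cancer, ID1 and ID3 are known as genes that favour growth of metastases in the lung, and ID4 is known from basal cells of the mammary gland and from neural progenitors.

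The promoters of all 4 genes are shown because 3 of these genes rose and no rise of the remaining one was called. Each window holds the 250 bases before the start site in RefSeq (GRCh38.p14), written 5′ to 3′ on the strand of the gene. ID1 lies at chr20:31605039-31605288 on the plus strand, ID2 at chr2:8681806-8682055 on the plus strand, ID3 at chr1:23559502-23559751 on the minus strand and ID4 at chr6:19837120-19837369 on the plus strand. Capitals mark matches, on either strand, to 5 motifs, which are GGCGCC (a GC-rich element of SMAD1/5), GTCTAGAC (the palindromic SMAD element), CAGAC (the short SMAD box), CANNTG (the E-box) and TATAAA (the TATA box).
ID1: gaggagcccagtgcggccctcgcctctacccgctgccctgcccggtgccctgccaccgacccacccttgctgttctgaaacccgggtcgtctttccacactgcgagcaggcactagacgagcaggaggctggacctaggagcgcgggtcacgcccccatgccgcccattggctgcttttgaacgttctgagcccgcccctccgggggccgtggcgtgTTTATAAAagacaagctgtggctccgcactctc
ID2: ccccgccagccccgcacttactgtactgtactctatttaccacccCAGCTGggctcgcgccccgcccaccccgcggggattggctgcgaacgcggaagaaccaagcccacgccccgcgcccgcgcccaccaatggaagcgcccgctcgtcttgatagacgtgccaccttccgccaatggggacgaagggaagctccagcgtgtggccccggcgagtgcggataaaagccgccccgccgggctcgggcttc
ID3: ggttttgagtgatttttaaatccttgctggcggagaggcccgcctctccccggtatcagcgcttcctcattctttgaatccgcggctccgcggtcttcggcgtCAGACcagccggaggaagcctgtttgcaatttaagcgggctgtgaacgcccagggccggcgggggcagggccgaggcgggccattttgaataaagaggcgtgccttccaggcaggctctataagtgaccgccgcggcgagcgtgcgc
ID4: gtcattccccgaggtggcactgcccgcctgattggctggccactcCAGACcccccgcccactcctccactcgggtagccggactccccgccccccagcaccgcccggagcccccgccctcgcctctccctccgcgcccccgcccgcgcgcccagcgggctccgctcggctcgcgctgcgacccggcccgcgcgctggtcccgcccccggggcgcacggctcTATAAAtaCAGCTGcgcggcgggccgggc

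Neither SMAD element, GGCGCC or GTCTAGAC, was found in any of the 4 windows. Among 35116 promoters of the same length, 16.4% held the first and 0.182% the second. The short box CAGAC was present once in ID3, at position -147 from the start, and once in ID4, at -205, and 38.0% of all promoters held it. An E-box was found once in ID2, at -205, and once in ID4, at -21, both with the letters CAGCTG, against 61.8% of all promoters with a match to CANNTG. The TATA box stood just before the start in ID1 and ID4, at positions -31 and -29, and 10.7% of all promoters held it. In ID1 the marked stretch also reads as a TATA box on the opposite strand, which overlaps the first match. All 4 windows were richer in G and C than the median promoter (58.0%), with 66.0% in ID1, 69.2% in ID2, 62.0% in ID3 and 78.8% in ID4. These matches describe the letters of these windows alone; elements further upstream were not searched.

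The arrays held log2 signals between 5.79 and 14.22, with medians between 6.69 and 6.70, and correlated with each other at 0.993 to 0.996. Activin B replicate 3 stood apart on the first principal component (29.5% of the variance), at 21.7 against -10.6 to 5.70 for the other 5 arrays, and the changes of the members are therefore given without it as well. All 6 measured mesenchymal markers (VIM and CD44 among them) lay above the array median, as did 7 of 11 breast epithelial markers, including KRT14 and KRT18 but neither EPCAM nor CDH1. Of markers of other cells, 1 of 5 endothelial (PECAM1), 1 of 4 leukocyte (CD3E) and 0 of 3 hepatocyte and kidney genes did so, and none of these markers passed the test between the groups. One of the bacterial control RNAs spiked into the samples, thr, read higher in activin B, with log2 changes of 0.29 to 0.54. This held over its 6 probe sets, 3 of them without overlap. Tested among themselves, 0 of the 62 array controls passed (smallest adjusted p = 0.433, limma). The other 3 such controls (dap, lys, phe; 18 sets) lay between -0.10 and 0.09. The part of this shift in the results was not tested; the changes of ID1, ID2 and ID3 were larger than its whole range.

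To learn which ID genes responded to activin B, the signal on each array was compared between the groups by limma, with p values adjusted over all 54613 probe sets by the Benjamini-Hochberg method. With a threshold of 0.05 on the adjusted p, 4 of the 9 ID probe sets rose and 0 fell, against background shares of 0.0732% rising and 0.0476% falling among all probe sets tested. In the same 4 sets, each activin B value lay above each vehicle value, which was the case in 4.91% of all probe sets; the opposite order, found in 4.89% of them, was seen in 0 of the 9. All 4 belonged to ID1, ID2 and ID3. None of the 5 probe sets of ID4 passed.

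ID3 showed the largest rise of all probe sets tested. Its log2 signal was 11.69, 11.25 and 11.15 on the activin B arrays, against 8.81, 8.34 and 8.38 on the vehicle arrays. The lowest activin B value lay 2.34 above the highest vehicle value, so the groups were far from overlapping. The mean was 11.36 ± 0.28 in activin B and 8.51 ± 0.26 in vehicle (SD, n = 3 each), and the 7.21-fold rise had a 95% interval of 5.94 to 8.76-fold (adjusted p = 6.81e-08, limma).

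ID1, the founding member of the family, came next among all probe sets. It was read at 12.52, 12.07 and 12.04 in activin B and at 10.12, 9.89 and 9.85 in vehicle. The gap between the groups was 1.92 on the log2 scale, larger than the range of either group. Means were 12.21 ± 0.27 in activin B and 9.96 ± 0.15 in vehicle (SD, n = 3 each), a rise of 4.77-fold (95% interval 4.06 to 5.61-fold; adjusted p = 7.74e-08, limma).

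ID2, which besides E proteins is known to bind the retinoblastoma protein, came after them by the brighter of its probe sets. That set read 10.66, 10.40 and 10.38 in activin B, against 8.87, 9.02 and 9.13 in vehicle. Means were 10.48 ± 0.16 and 9.01 ± 0.13 in these groups (SD, n = 3 each), 2.78-fold higher in activin B (95% interval 2.44 to 3.15-fold; adjusted p = 6.52e-07, limma). The dimmer probe set of ID2 ranked 5 among all probe sets, with 9.01, 8.84 and 8.97 in activin B and 7.58, 7.86 and 7.68 in vehicle. Its rise was 2.35-fold (95% interval 2.09 to 2.64-fold; adjusted p = 1.13e-06, limma). It belongs to a class of probe sets whose probes may also bind other transcripts. Both sets separated the groups without overlap. Their log2 changes, 1.47 and 1.23, differed by 0.24 (exact permutation test, two-sided, p = 0.2, where 0.1 is the smallest p that 3 against 3 arrays allow), so the test could not have passed 0.05 and does not show whether the sets differ.

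The probe set shared by ID2 and ID2B gave a smaller difference. It read 7.79, 7.58 and 7.65 in activin B and 7.25, 7.32 and 7.35 in vehicle, so the groups stood apart by 0.23. The log2 change of 0.37 ± 0.07 (SE) did not pass (adjusted p = 0.0698, limma), and it lay within the range of the thr spike-in sets. Its log2 change was smaller than that of the brighter ID2 set by 1.10 and than that of the dimmer one by 0.87 (exact permutation test, two-sided, p = 0.1 for both).

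**Figure D1:**
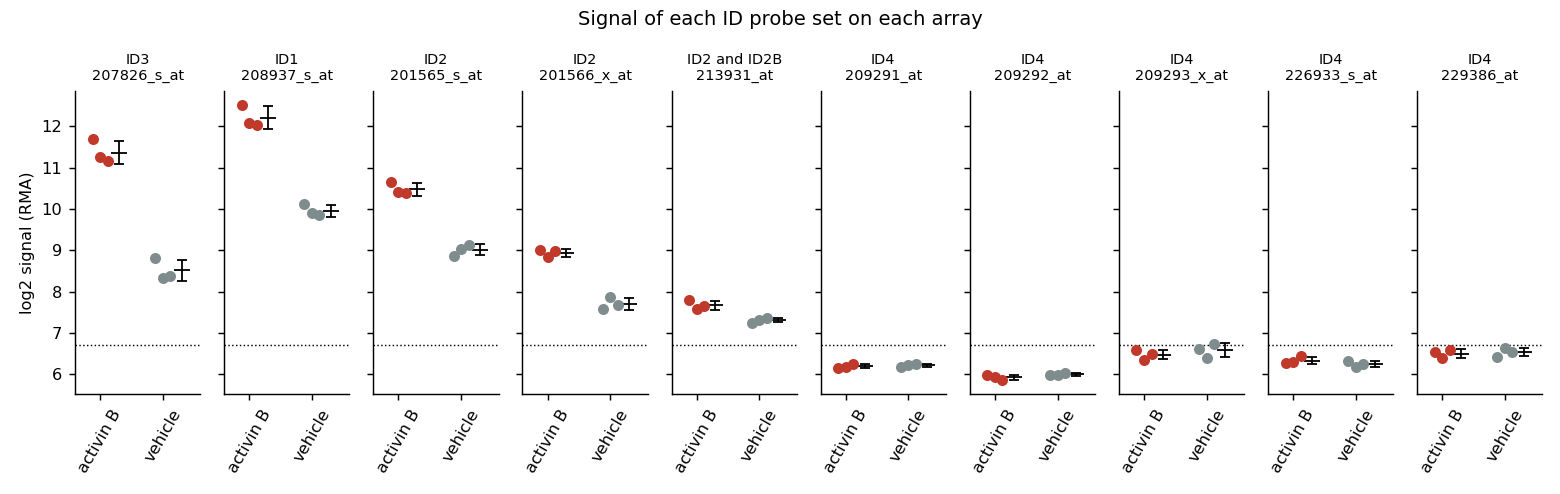
Log2 signal (RMA) of each ID probe set on each array, activin B in red and vehicle in grey, with mean and SD of 3 arrays beside the points. The dotted line is the array median; the groups stand clearly apart in the sets of ID3, ID1 and ID2 and overlap in the 5 sets of ID4, all of which have means under that line.

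No probe set of ID4 gave a call. Its brightest probe set, also of the cross-binding class, read 6.58, 6.35 and 6.49 in activin B and 6.61, 6.40 and 6.74 in vehicle. The groups overlapped, with means of 6.47 ± 0.12 and 6.58 ± 0.17 (SD, n = 3 each). The change of 0.927-fold had a 95% interval of 0.817 to 1.05-fold (adjusted p = 0.995, limma).

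The other 4 probe sets of ID4 overlapped between the groups as well. The set next in brightness read 6.53, 6.38 and 6.59 in activin B and 6.43, 6.64 and 6.54 in vehicle. A further set, with 6.27, 6.29 and 6.43 in activin B and 6.32, 6.17 and 6.25 in vehicle, had the one positive change (0.08 ± 0.07 on the log2 scale, SE). The remaining pair lay lowest, with means of 6.19 and 5.92 in activin B and 6.22 and 6.00 in vehicle. Over all 5 sets the 95% intervals of the log2 change lay between -0.29 and 0.23, and none had an unadjusted p under 0.05. All 5 sets had means below the array median of 6.70. RMA compresses differences near background, so these intervals hold for the array signal and a change of a weakly expressed transcript could be missed.

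**Figure D2:**
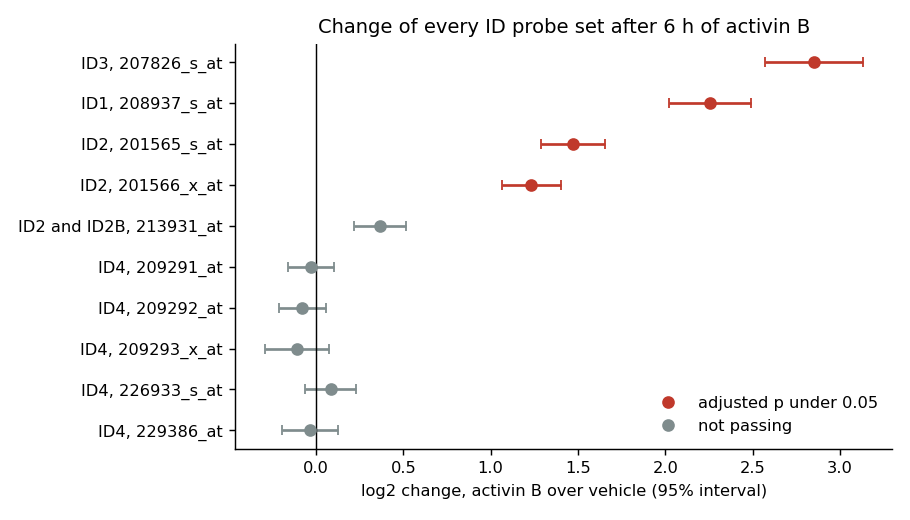
Log2 change of every ID probe set, activin B over vehicle, with 95% intervals from limma. The intervals of ID3, ID1 and both ID2 sets (red) lie above 1, that of the set shared by ID2 and ID2B between 0.22 and 0.52, and those of ID4 include 0.

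The responding members differed in the size of their rise in every array. Relative to the mean of the vehicle arrays, ID3 stood at 3.18, 2.73 and 2.64 in activin B replicates 1, 2 and 3. ID1 stood at 2.57, 2.12 and 2.08, and ID2 at 1.65, 1.40 and 1.37. The order was thus ID3, ID1, ID2 on each of the 3 arrays. The log2 change of ID3 exceeded that of ID1 by 0.60, a 1.51-fold larger rise. ID1 exceeded ID2 by 0.78 and ID3 exceeded ID2 by 1.38. For each of these differences, the 3 activin B arrays lay beyond all 3 vehicle arrays, which gave the smallest p that the design allows (exact permutation test, two-sided, p = 0.1; 0.1 after adjustment over the 6 pairs of members), and this cannot pass 0.05. ID1 and ID3 were read from 1 probe set each, and the 2 sets of ID2 alone differed by 0.24 in log2 change. These sizes therefore compare probe sets, and a difference between the genes cannot be told apart from one between their sets. No size is given for the pairs with ID4, since all its probe sets had means below the array median.

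ID1 and ID3 also varied alike within the groups. In activin B, replicate 1 lay above the group mean by 0.31 for ID1 and 0.32 for ID3, and in vehicle, replicate 1 lay above it by 0.17 and 0.30. Every other array lay below the group mean for both genes. The brighter ID2 set shared the high value of activin B replicate 1 (0.18 above the mean), but its vehicle replicate 1 was the lowest of the group (deviation -0.14). With 3 arrays per group these deviations are a description, and they were small beside the rises.

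Leaving out any single array did not end the rise of ID1, ID2 or ID3. The log2 change then lay between 2.69 and 3.003 for ID3, between 2.10 and 2.34 for ID1 and between 1.38 and 1.54 for ID2. Without activin B replicate 3, the array that stood apart, adjusted p values were 6.83e-08 for ID3, 7.90e-08 for ID1 and 1.21e-06 for ID2 (limma). The brightest set of ID4 then had a log2 change of -0.12 (adjusted p = 0.935, limma), and ID3 exceeded ID1 by 0.61 and ID1 exceeded ID2 by 0.82. Of the calls described below in genes outside the family, that of TCF4 ended without this array, with a log2 change of 0.37 (adjusted p = 0.118, limma).

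**Figure D3:**
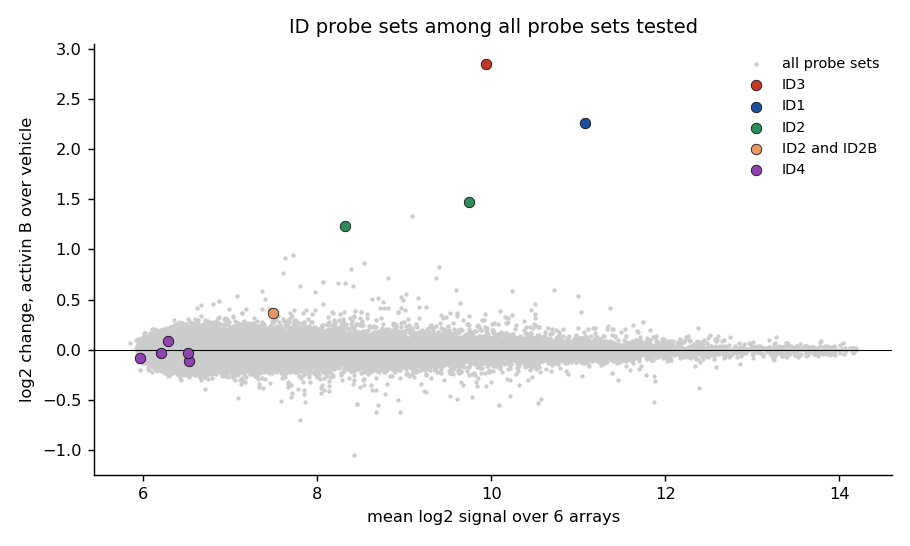
Log2 change (activin B over vehicle) against mean log2 signal over 6 arrays for all 54613 probe sets, with ID probe sets in colour. ID3, ID1 and ID2 take ranks 1, 2, 3 and 5 by size of rise, whereas the ID4 sets sit at the dim end around 0.

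The 5 probe sets that rose more than 2-fold comprised the 4 of ID1, ID2 and ID3 and 1 of DLX2, a homeobox transcription factor. The other probe set of DLX2 had a log2 change of 0.24 (adjusted p = 0.557, limma), and the mean of both sets 0.78 (adjusted p = 0.000732), against 1.33 for the brighter set alone. DLX2 was also the gene nearest to ID2 over the 6 arrays. Likeness was measured as the root mean square difference of log2 signals, each gene taken relative to its own vehicle mean, and is given as a description. It depends mainly on the size of the change, so genes with rises of like size come out near each other. That difference was 0.144 between ID2 and DLX2, where a gene with no change at all would lie at 1.05. DLX2 read 9.78, 9.68 and 9.82 in activin B and 8.25, 8.52 and 8.52 in vehicle. Next came DUSP2, a phosphatase that inactivates MAP kinases, at 0.385, and MUC8 at 0.435.

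For ID1 and ID3 the nearest genes were members of the family. ID1 and ID3 differed from each other by 0.428, while a flat gene would lie at 2.03 from ID3 and likewise far from ID1. Outside the family the same 3 genes followed, with DLX2, DUSP2 and MUC8 at 0.694, 0.942 and 0.966 from ID1 and at 1.11, 1.37 and 1.39 from ID3. This is the order of their log2 changes (1.33, 0.94 and 0.91), so it shows the size of the rises and no likeness beyond that. MUC8 was read from a probe set of the cross-binding class, and its other set had a log2 change of 0.04. No gene was named for ID4, since 7381 genes lay within 0.15 of its flat profile.

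**Figure D4:**
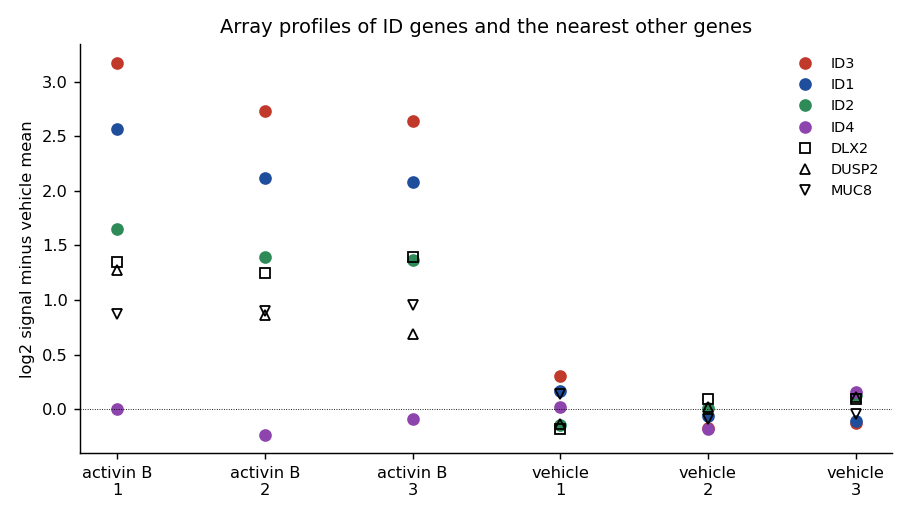
Log2 signal minus the vehicle mean on each of 6 arrays for the ID genes (filled circles, 1 probe set each) and the 3 nearest genes outside the family (open symbols). On each activin B array the order is ID3, ID1, ID2, with DLX2 close to ID2 and ID4 at or below 0.

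Genes next to the ID genes on the chromosome gave no call. In the order of the reference annotation, the 3 measured genes on either side of each member, 24 in all, had log2 changes between -0.07 and 0.17. By limma, 0 of the 24 passed (smallest adjusted p = 0.906) and 2 had an unadjusted p under 0.05, where 0.192% of all genes passed and 5.9% had such a p. All 24 overlapped between the groups, as did 89.7% of all genes, so these counts lay near the background. These neighbours include ID2-AS1, a non-coding RNA beside ID2, whose brighter set had a log2 change of 0.02 ± 0.07 (SE), and BCL2L1, an apoptosis inhibitor beside ID1, with 0.09 ± 0.07 (SE).

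Receptors and SMADs that carry signals of this ligand family to the ID genes were counted next, with 1 probe set per gene. Of 21 measured, 2 rose, 1 fell and 18 did not pass, while 0.101% of 19775 genes rose and 0.091% fell by the same rule. This list and those that follow were chosen with earlier results of these data known, so their counts beside these shares are no test. SMAD9, a transducer of the BMP branch, read 8.03, 8.04 and 7.91 in activin B and 7.18, 7.21 and 7.29 in vehicle, 1.70-fold higher (adjusted p = 5.38e-05, limma). Its other probe set overlapped between the groups, with a log2 change of 0.10 (adjusted p = 0.995, limma), and the mean of both sets was 0.43 (adjusted p = 0.00623), against 0.77 for the brighter set. The inhibitory SMAD7 rose 1.55-fold (adjusted p = 0.000313, limma). SMAD1, the transducer through which BMPs are known to act on ID genes, fell by 0.53 on the log2 scale, with 10.22, 10.38 and 10.24 in activin B against 10.84, 10.86 and 10.71 in vehicle (adjusted p = 0.00344, limma), and 2 of its 3 probe sets passed. SMAD5, its close relative, had log2 changes between -0.12 and 0.07 over 5 probe sets.

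Among the receptors of this list none passed. ACVR1, a type I receptor known to signal to SMAD1 and SMAD5, had a log2 change of -0.01 ± 0.06 (SE), ACVR1B 0.02 ± 0.08 and ACVR1C -0.18 ± 0.07. The inhibitory SMAD6 had 0.32 ± 0.08 (SE; adjusted p = 0.336, limma), ACVRL1 0.19 ± 0.07 and TGFBR3 -0.15 ± 0.07. The list median was 0.02, against -0.00166 over all genes.

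E proteins and the tissue-specific bHLH factors are the partners that ID proteins bind. Of 42 measured, 2 rose, 0 fell and 40 did not pass, against 0.101% of all genes rising and 0.091% falling. The list median was -0.00171. Only 16 of the 42 lay above the array median, so a change of the weakly expressed others could be missed, as for ID4. ATOH8, a bHLH factor, rose by 0.58 on the log2 scale in the brightest of its 3 probe sets, from which 7.76, 7.63 and 7.58 were read in activin B and 6.98, 7.11 and 7.13 in vehicle (adjusted p = 0.00142, limma). A second set passed as well (log2 change 0.45, adjusted p = 0.0195, limma), within the range of the thr spike-in sets. The third set overlapped between the groups (log2 change 0.07, adjusted p = 0.999, limma), and the mean of all 3 sets was 0.36 (adjusted p = 0.0271, limma).

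TCF4, one of the E proteins, read 9.69, 9.74 and 9.70 in activin B and 9.25, 9.43 and 9.35 in vehicle from the brightest of its 8 probe sets. The groups did not overlap, and the rise of 1.29-fold passed narrowly (adjusted p = 0.0476, limma). In another set the rise was 0.42 (log2; adjusted p = 0.0285, limma), and the 8 sets ranged between 0.03 and 0.42. The call ended without any 1 array (adjusted p = 0.100 to 0.290), with log2 changes of 0.32 to 0.41 then against 0.37 with all arrays, and both changes lay within the range of the thr spike-in sets. The other E proteins were not called, with log2 changes of 0.06 ± 0.09 for the brightest set of TCF3 and -0.03 ± 0.07 for TCF12 (SE). TCF3 disagreed among its sets, the highest at 0.38 (adjusted p = 0.210, limma) and the lowest at -0.08. MSC, TCF21, FIGLA and TWIST1 followed by p, between -0.19 and 0.24.

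None of 20 genes for ID protein turnover and for partners outside the bHLH class passed (limma), near the background of 0.192% of all genes. An unadjusted p under 0.05 was found for 2 of them, both lower in activin B, against 2.8% of all genes lower at that p. ETS1, a transcription factor, had a log2 change of -0.35 ± 0.08 and RBL1, a relative of the retinoblastoma protein, -0.23 ± 0.06 (SE; adjusted p = 0.173 and 0.462). PAX2 and ANAPC2 followed at 0.12 and 0.06. USP1, the deubiquitinase that stabilises ID proteins, stood at 10.71 in activin B and 10.75 in vehicle, a difference of -0.04 ± 0.08 (SE). RB1 itself had -0.01 ± 0.08 (SE).

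Genes that ID proteins are known to hold down, cell cycle inhibitors above all, gave no call at this time either. Of 12 measured, 0 passed by limma, where 0.192% of all genes passed, so this count lay near the background. An unadjusted p under 0.05 was found for 2 of them, against 5.9% of all genes. CDKN1A, which encodes p21, had a log2 change of 0.23 ± 0.07 and CDKN1C, which encodes p57, one of -0.17 ± 0.06 (SE; adjusted p = 0.668 and 0.826). GADD45A and CDKN2B had -0.12 and -0.10, and THBS1, encoding the angiogenesis inhibitor thrombospondin, -0.09 ± 0.08 (SE). The list median was 0.02.

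Target genes of BMPs and SMAD1/5 outside the ID family were counted in the same way. Of 31 measured, 8 rose, 0 fell and 23 did not pass, against 0.101% of all genes rising and 0.091% falling. The list was chosen with earlier results of these data known, so this count is a description and no independent evidence for a BMP response. The list median was 0.06, and 19 of the 31 lay above the array median. The 8 that rose were DLX2, DUSP2, SMAD9, GATA2, SMAD7, ATOH8, DLX1 and BAMBI. Of these, SMAD9, SMAD7 and ATOH8 were counted in the lists above as well. The log2 changes of the 8 lay between 0.51 and 1.33, each smaller than those of ID1, ID3 and the brighter ID2 set. DLX2 exceeded the dimmer ID2 set, and DLX1 and BAMBI lay within the range of the thr spike-in sets. The other probe set of DLX1 was not called, with a log2 change of 0.21. NOG, a secreted BMP antagonist, had 0.35 ± 0.08 and SMAD6 0.32 ± 0.08 (SE; adjusted p = 0.219 and 0.336), while MSX2 and RUNX2 had -0.15 and -0.11. The call of GATA2 ended when its 3 probe sets were averaged (log2 change 0.23; adjusted p = 0.184) and that of BAMBI without vehicle replicate 2 (adjusted p = 0.135).

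Of 37 measured targets of SMAD2/3, SMAD7 and SKIL rose, 0 fell and 35 did not pass, against 0.101% of all genes rising and 0.091% falling. SMAD7 was counted in lists above as well. SKIL, a SMAD corepressor, rose 1.58-fold (adjusted p = 0.00142, limma), a call that ended when its 5 probe sets were averaged (log2 change 0.17; adjusted p = 0.413). PMEPA1, JUNB, IL11 and SNAI2 had log2 changes between 0.22 and 0.33 that did not pass (smallest adjusted p = 0.161). The list median was 0.08, and its 12 members with an unadjusted p under 0.05 were all higher in activin B, against 3.1% of all genes higher at that p. The same was seen in the list of BMP and SMAD1/5 targets, where 10 of 31 had such a p and all were higher. The difference between the lists of SMAD targets was not tested.

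Stem cell markers were counted because ID proteins are known for keeping stem cells undifferentiated. Of 21 measured, 0 passed by limma, near the background of 0.192% of all genes. An unadjusted p under 0.05 was found for 4 of them, against 5.9% of all genes. CD24, SNAI2 and EPCAM had log2 changes of 0.31, 0.22 and 0.16, and NANOG had -0.16. EPCAM and NANOG lay below the array median in both groups. The signs of these changes were not read as a gain or loss of stem cell traits, which was not tested.

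**Figure D5:**
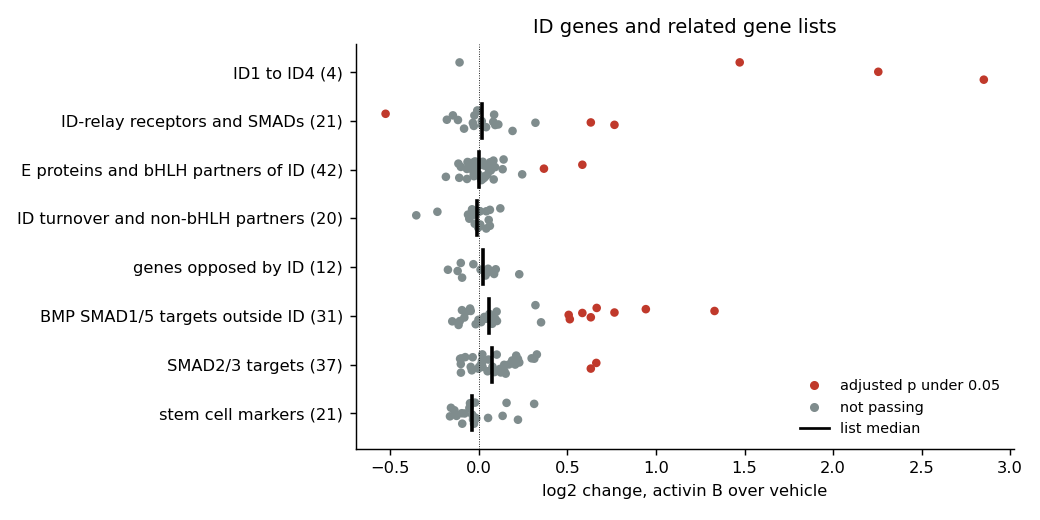
Log2 change, activin B over vehicle, of ID1 to ID4 and of the members of 7 gene lists (number measured in brackets, 1 probe set per gene). Red points passed at an adjusted p under 0.05 and black bars are list medians; by their brightest probe sets ID1, ID2 and ID3 lie to the right of all points of the lists, with DLX2 the nearest at 1.33.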

How the data were processed

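Expression was measured on Affymetrix Human Genome U133 Plus 2.0 arrays from 50 ng of total RNA per sample. In Chipster, the authors applied robust multiarray averaging (RMA), and the deposited values are log2 signals. RMA equalises the distributions of the arrays, which removes changes shared by most transcripts, and it compresses differences near background. Groups and replicate numbers came from the sample titles.

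Without the 62 array controls, 54613 probe sets were tested by limma 3.58.1 in R 4.3.3 (linear model, empirical Bayes; residual degrees of freedom 4, prior 10.8), the kind of test named in the methods of the study. Of these sets, 41091 had 1 gene symbol, 1801 several and 11721 were unnamed here; 41037 matched RefSeq by gene identifier, which changed 0 symbols. For genes with several probe sets outside the ID family, the brightest on average was used. P values and intervals rest on the spread between 3 arrays per group, drawn towards the spread typical of all probe sets. For ID1, ID2 and ID3 this made the intervals narrower than the spread of their own arrays alone would give. The 3 arrays per group limit the precision.

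The members, the 7 gene lists and the tests were chosen with earlier results of these data known. Named were the members with every probe set, the called genes of each list with up to 4 more of smallest p, the 3 genes nearest in profile to ID1, ID2 and ID3, and called chromosomal neighbours (3 on each side). Others, such as TCF3, TCF12, SMAD5, the activin receptors, USP1, RB1, THBS1, BCL2L1, ID2-AS1 and the marker genes, were chosen after their values were seen. On simulated arrays for this comparison (54613 probe sets), limma called 29.2% of sets changed by 0.25 on the log2 scale and 99.4% of those changed by 0.5. The simulated noise was normal, independent between probe sets and of the spread taken from the fit, so these shares may be too high for the real arrays. As alternatives, each array was left out in turn, dim probe sets were filtered, replicate numbers were blocked, the values were normalized again, priors and array weights were varied, and other probe sets of a gene were taken. Figures were drawn with matplotlib 3.10.9.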

Additional observations from a re-analysis of the deposited data

How the results depend on the processing

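The rises of ID1, ID2 and ID3 kept their direction and passed under all 16, 17 and 16 alternatives run, with log2 changes of 2.10 to 2.34, 1.23 to 1.54 and 2.69 to 3.003 and a largest adjusted p of 3.76e-05. ID4 passed under none of its 18 (adjusted p = 0.833 to 1.00), and its sign turned to a log2 change of 0.0843 for another of its probe sets. The filters on dim probe sets left out the ID4 set, so no value was had there. The order ID3, ID1, ID2 held under all 10 alternatives run for it.

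Leaving out 1 array gave 25 to 50 rising and 7 to 26 falling probe sets, against 40 and 26 with all arrays; the rising count was 26 without replicate 2 of activin B and 25 when replicate 2 of vehicle was dropped, and the falling counts were 12 and 7 there. Dropping activin B replicate 1, vehicle replicate 1 or vehicle replicate 3 left 13, 10 or 12 falling sets. With only probe sets of mean 7.5 or more, fewer sets were tested and 24 rose.

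With the replicate number as a block, 53 rose and 44 fell, and the ID calls were the same. Deviations of same-numbered arrays correlated at 0.16, 0.04 and 0.19, so the numbers were not taken as pairs, although each array correlated best with its own number. The E protein and bHLH list held 0 to 2 called members, the turnover list 0 to 1 (1 with the block) and the SMAD2/3 list 1 to 2. Of the genes named besides the family, in alternatives chosen after seeing the data, TCF4 lost its call most often, not passing in 9 of 16 (adjusted p up to 0.290).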
